A study of Mus musculus with 8 samples.

Results

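The 38 genes described here are interferon-stimulated genes, chosen for their known induction by interferon and not by a threshold on these measurements: 28 are usually given as targets of type I interferon and 10 as targets of interferon gamma. They are 38 of the 55416 genes in the table, and all 38 reached the level needed for testing, among 12710 genes that did. RNA-seq levels were measured in whole liver from mice fed HFMCD, a steatohepatitis-inducing diet, for 9 weeks. Of the 8 libraries, 4 came from Alb-cre- floxed controls and 4 from Alb-cre+ knockouts, in which Cre recombinase driven by the albumin promoter, active in hepatocytes, removes Smpd3, the gene of a neutral sphingomyelinase. The study's design text asks what this enzyme does in diet-induced steatohepatitis. All 8 libraries are from animals on this diet, and no group on a standard diet was analysed here. The knockouts carry Cre and the controls do not, so effects of Cre itself cannot be told apart from those of losing Smpd3. The labels give no age, sex or strain and do not say that each library was a separate animal, so p-values measure only the spread between these samples, which may be technical.

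Type I interferons signal through a receptor that activates the kinases JAK1 and TYK2, and a complex that holds STAT2 and IRF9 then binds interferon-stimulated response elements (ISRE) in the promoters of antiviral genes. Interferon gamma, made mainly by T and NK cells, acts through JAK1 and JAK2 on genes with gamma-activated sites (GAS), and its targets include the immunity-related GTPases and guanylate-binding proteins that act on vacuoles holding intracellular pathogens. Many genes answer to both, so the classes overlap. In liver, hepatocytes and the cells of the sinusoids can both respond.

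The letters of that response can be seen in the promoters. RefSeq promoter windows on GRCm38.p6, from 250 bases before to 50 after the start of the gene, were found for 28 of the 38 genes. The ISRE searched was GAAANNGAAA on both strands, and it was in 17 of the 28 windows (60.7%), against 1079 of 27025 genes with a window (3.99%). It was in 10 of 19 type I genes (52.6%) and 7 of 9 gamma genes (77.8%). The GAS searched was TTCNNNGAA, which reads the same on both strands and can overlap an ISRE match by its GAA end. It was in 9 of the 28 (32.1%), against 2582 genes in all (9.55%), with 5 of 19 type I genes (26.3%) and 4 of 9 gamma genes (44.4%). A match is a description of these letters and not a measured binding site.

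The 5 windows printed here were chosen because they hold matches, to show how ISRE and GAS letters lie alone, repeated or side by side, with the matches in capitals and read along the strand of the gene. Other windows hold neither, among them that of Irf7. Isg15 (chr4:156200769-156201068, minus strand) holds 3 overlapping ISRE matches that begin 78, 72 and 66 bases before the start. Bst2 (chr8:71537423-71537722, minus strand) holds a GAS match at 136 that runs into ISRE matches at 130 and 124. Igtp (chr11:58199306-58199605, plus strand) and Irgm2 (chr11:58214727-58215026, plus strand) each hold a GAS match just ahead of an ISRE match, at 45 and 34 bases in Igtp and at 75 and 64 in Irgm2. Irf1 (chr11:53769764-53770063, plus strand) holds a GAS match at 90 and no ISRE match, and another RefSeq window of Irf1 holds neither.
Isg15: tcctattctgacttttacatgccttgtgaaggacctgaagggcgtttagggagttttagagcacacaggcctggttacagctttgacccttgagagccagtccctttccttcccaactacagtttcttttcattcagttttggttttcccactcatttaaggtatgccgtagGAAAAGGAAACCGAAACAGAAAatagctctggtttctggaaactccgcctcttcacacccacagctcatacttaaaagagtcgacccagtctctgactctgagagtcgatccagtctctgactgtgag
Bst2: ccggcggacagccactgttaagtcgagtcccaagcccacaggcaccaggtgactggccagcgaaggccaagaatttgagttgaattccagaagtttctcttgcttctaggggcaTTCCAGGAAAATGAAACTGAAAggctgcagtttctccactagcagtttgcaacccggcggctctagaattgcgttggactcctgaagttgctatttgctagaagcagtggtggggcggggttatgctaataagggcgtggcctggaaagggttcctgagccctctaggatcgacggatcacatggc
Igtp: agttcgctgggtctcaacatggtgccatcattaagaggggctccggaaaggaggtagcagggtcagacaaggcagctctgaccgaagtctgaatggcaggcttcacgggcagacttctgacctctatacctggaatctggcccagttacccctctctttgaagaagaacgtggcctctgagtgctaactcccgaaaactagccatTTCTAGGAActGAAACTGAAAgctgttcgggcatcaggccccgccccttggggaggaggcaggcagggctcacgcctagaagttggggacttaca
Irgm2: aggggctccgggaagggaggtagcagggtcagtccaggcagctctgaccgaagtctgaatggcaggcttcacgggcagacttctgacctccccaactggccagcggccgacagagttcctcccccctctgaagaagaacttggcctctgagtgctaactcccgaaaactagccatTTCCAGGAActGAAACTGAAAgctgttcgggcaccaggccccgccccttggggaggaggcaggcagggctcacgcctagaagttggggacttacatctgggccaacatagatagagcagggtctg
Irf1: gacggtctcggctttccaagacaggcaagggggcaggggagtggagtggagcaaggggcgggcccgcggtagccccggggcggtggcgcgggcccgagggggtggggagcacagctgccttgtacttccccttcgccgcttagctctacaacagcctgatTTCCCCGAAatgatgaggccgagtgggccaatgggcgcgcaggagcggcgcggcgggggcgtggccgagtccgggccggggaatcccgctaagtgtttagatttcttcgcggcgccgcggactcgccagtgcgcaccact

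The libraries behind the values were alike in total, between 994563 and 995449 TPM (a level scaled to gene length and to each library's own total), with 12115 to 12890 genes at 1 TPM or more. Depth is unknown from such values. Smpd3 itself ran from 6.38 to 12.5 TPM across the controls and from 1.17 to 3.03 TPM across the knockouts, a log2 difference of -1.89 ± 0.24 (SE; limma adjusted p 0.0300, exact permutation p 0.0286, the smallest that 4 against 4 allows). Over all genes tested, 8211 of 12710 (64.6%) were higher in the knockouts, and the median log2 difference was 0.05, so the members are read against that. Floxed control 4 lay lowest of the 8 libraries in 44.8% of all genes tested. Summed hepatocyte markers ran from 80984 to 95218 TPM across the controls and from 72719 to 80965 TPM across the knockouts. Every knockout lay below every control, though control 1 and knockout 4 nearly met. This sum leans on abundant genes, the largest at a mean of 45989 TPM. By gene, the median log2 difference of the 9 markers was -0.09, and 0 passed. In 3 of the 9 the groups did not overlap, against 4.74% of all genes. In whole liver, fewer cells of a type and less RNA per cell cannot be told apart.

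None of the 38 interferon-stimulated genes passed the test. In limma with Benjamini-Hochberg adjustment over all 12710 genes, 0 of the 38 had an adjusted p under 0.05, where the background was 13 genes (0.102%). The smallest adjusted p among them was 0.516. At an unadjusted p under 0.05 there was 1 member of 38, Bst2, against 8.02% of all genes tested. In none of the 38 did the 4 knockout values lie clear of the 4 control values, against 4.74% of all genes. The differences were small and mostly of 1 sign: 37 of the 38 had a higher mean log2 level in the knockouts (97.4%, against 64.6% of all genes), from -0.08 to 0.37 with a median of 0.15. This split depended on the scaling: 29 of 38 were higher under median-of-ratios scaling and 28 under quantile normalization, where 50.8% and 50.5% of all genes were, so the counts by role given next hold for the TPM scale. The members share regulators and libraries and are not independent, and no test of the list was made. The 95% intervals of the 38 differences ran in all from -0.54 to 0.90, with a median half-width of 0.43, against 0.34 over all genes. A difference smaller than the half-width of its own gene cannot be told apart from 0, even before adjustment.

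**Figure D1:**
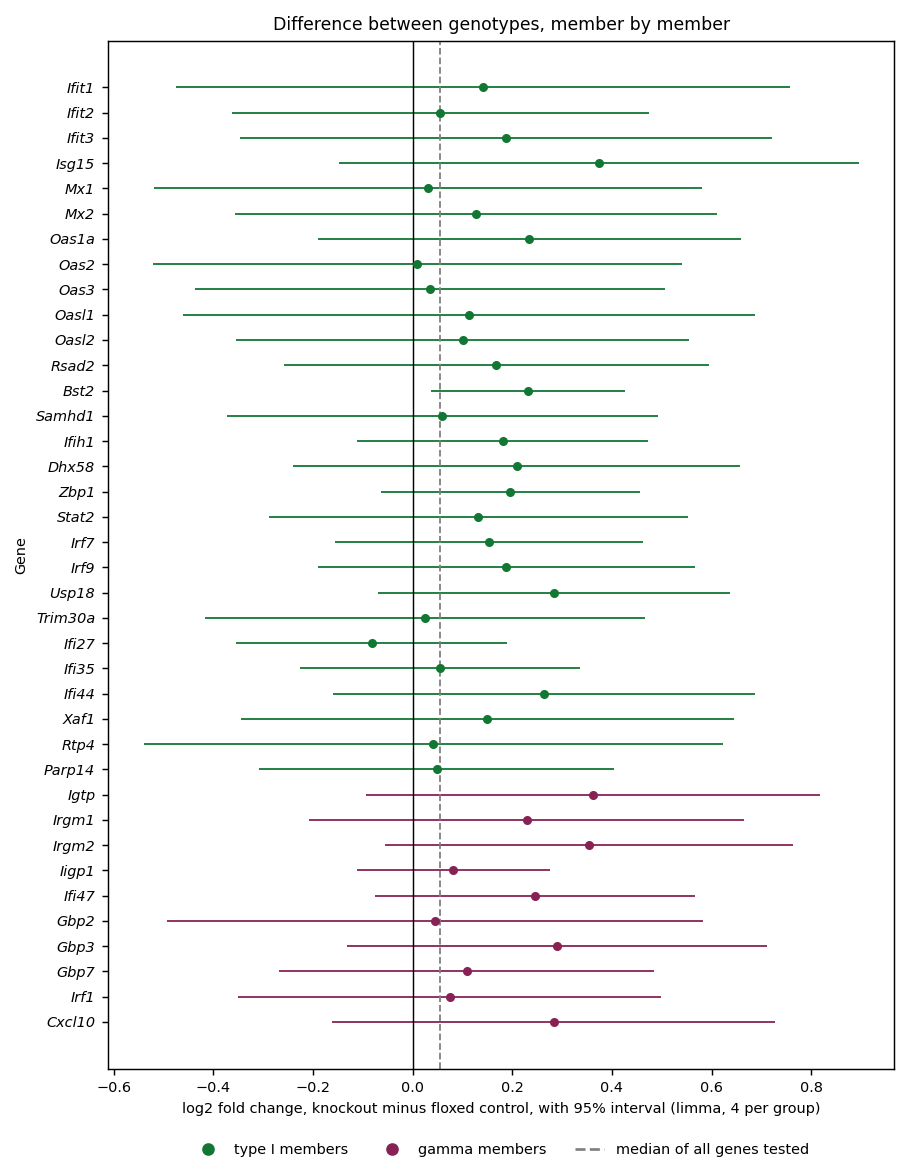
Log2 difference (knockout minus floxed control, horizontal axis) of each of the 38 genes on the log2(TPM + 1) scale, grouped by role, with its 95% interval from limma. Of the 38 points, 37 lie to the right of 0, and the interval of Bst2 alone lies wholly to that side.

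The antiviral effectors of the type I response act on viral RNA, on translation and on virus release. All 14 had a higher mean log2 level in the knockouts, with a median difference of 0.12, and 0 of 14 passed. Bst2 (ENSMUSG00000046718), the tetherin that holds budding virus at the cell surface, was the most abundant of the 38. Bst2 measured 404, 372, 487 and 421 TPM across floxed controls 1 to 4 against 510, 481, 463 and 515 TPM across knockouts 1 to 4, the order used for every gene here. Only control 3 reached into the range of the knockouts. Its means were 421 ± 48.5 and 492 ± 24.2 TPM (SD, n = 4 each), a log2 difference of 0.23 (95% interval 0.04 to 0.43; limma p 0.0246, adjusted 0.516). Bst2 is also known as a surface protein of plasmacytoid dendritic cells, whose summed markers in these libraries were between 2.25 and 4.34 TPM. Of these 5 markers, none was at 0 in all 8 libraries, but 3 stayed below 1 TPM in all 8. The part of these cells in the level of Bst2 was not tested.

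Isg15 (ENSMUSG00000035692), the ubiquitin-like protein conjugated to other proteins during the response, had the largest difference of the 38. Isg15 measured 47.0, 32.9, 76.0 and 42.3 TPM across the controls against 71.7, 72.9, 45.1 and 60.9 TPM across the knockouts. The highest value of all was that of control 3, and knockout 3 lay below control 1, so the groups overlapped. The means were 49.6 ± 18.6 and 62.6 ± 12.9 TPM (SD, n = 4 each), with a log2 difference of 0.37 (95% interval -0.15 to 0.90; limma adjusted p 0.777). Samhd1 (ENSMUSG00000027639), which breaks down the nucleotides that viral reverse transcription needs, showed almost no difference. It measured 23.9, 20.9, 25.3 and 12.6 TPM across the controls against 17.5, 21.8, 22.3 and 22.5 TPM across the knockouts, with control 4 lowest and control 3 highest (log2 difference 0.06 ± 0.20, SE; adjusted p 0.984 in limma).

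The other effectors were low to moderate in level. Ifit1, which binds viral RNA caps, measured 5.13, 3.24, 9.64 and 3.60 TPM across the controls against 5.50, 6.92, 3.95 and 6.38 TPM across the knockouts. Control 3 was again the highest of all, and controls 2 and 4 were the lowest. Mx1, a dynamin-like GTPase gene, was the least abundant of the 38 at a mean of 1.88 TPM over the 8 libraries. The OASL genes Oasl1 and Oasl2 ran from 7.27 to 22.0 TPM and from 7.09 to 16.6 TPM across the controls, with control 4 at the foot and control 3 at the head of both. Their knockouts lay within those ranges, from 11.8 to 15.4 TPM and from 10.8 to 13.2 TPM. Control 3 was the highest of the 8 in 10 of the 14 effectors. Bst2, Oas1a and Rsad2 were instead highest in knockout 4, and Oas2 in knockout 3. Among the IFIT, MX, OAS and OASL genes and Rsad2 (viperin), the log2 differences lay between 0.0092 in Oas2 and 0.23 in Oas1a. Values for Ifit3 and Oas1a are uncertain as levels of single genes, since 51.2% and 57.6% of the 50-base words of their annotated transcripts also occur in another gene, mostly Ifit3b and Oas1g.

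Sensors, transcription factors and feedback genes of the type I response were also all higher in mean log2 level, 8 of 8 with a median difference of 0.18, and 0 passed. Irf7 (ENSMUSG00000025498), the factor that amplifies type I interferon production, measured 52.2, 49.1, 75.7 and 50.3 TPM across the controls against 61.4, 62.0, 56.2 and 70.3 TPM across the knockouts. All 4 knockouts lay above controls 1, 2 and 4, and control 3 lay above all of them (log2 difference 0.15 ± 0.14, SE; limma adjusted p 0.886). Usp18 (ENSMUSG00000030107), which removes ISG15 from proteins and restrains the type I receptor, measured 18.5, 21.4, 28.1 and 15.4 TPM across the controls against 26.2, 24.7, 23.5 and 25.7 TPM across the knockouts. It had the same layout, with control 3 highest of the 8 and the other controls below every knockout. Its means were 20.9 ± 5.44 and 25.0 ± 1.19 TPM (SD, n = 4 each), with a log2 difference of 0.28 (95% interval -0.07 to 0.64; limma adjusted p 0.731).

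Zbp1 (ENSMUSG00000027514), a sensor of Z-form nucleic acids that can start necroptosis, measured 21.7, 20.8, 22.2 and 19.7 TPM across the controls against 23.7, 30.1, 22.4 and 21.7 TPM across the knockouts. Knockout 4 lay level with control 1, and the log2 difference was 0.20 ± 0.12 (SE; limma adjusted p 0.751). Among the remaining genes of this role, the RNA sensor genes Ifih1 and Dhx58 differed by 0.18 and 0.21 on the log2 scale. Stat2 and Irf9, whose products act in the type I complex, differed by 0.13 and 0.19, and Trim30a by 0.02.

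Of the 6 remaining type I genes, 5 were higher in mean log2 level, with a median difference of 0.05 that equals the median of all genes tested at 2 decimals. Ifi27 (ENSMUSG00000064215), a small interferon-induced protein of mitochondria and nuclear membranes, was the only one of the 38 with a negative difference. Ifi27 measured 228, 204, 238 and 295 TPM across the controls against 234, 234, 189 and 251 TPM across the knockouts. Control 4, the lowest of the 8 in 20 of the 38, was here the highest (log2 difference -0.08 ± 0.12, SE; limma adjusted p 0.941). Ifi35 (ENSMUSG00000010358), a leucine zipper protein, measured 28.8, 23.8, 34.6 and 25.4 TPM across the controls against 27.7, 33.0, 27.5 and 28.0 TPM across the knockouts. Control values lay on both sides of the knockouts (log2 difference 0.06 ± 0.13, SE; limma adjusted p 0.973). Xaf1 and Rtp4 were, like Usp18, led by control 3, at 40.3 and 47.0 TPM, against at most 27.1 and 33.1 TPM in any knockout, and were named after their values were seen. Ifi44 and Parp14 differed by 0.26 and 0.05 on the log2 scale.

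**Figure D2:**
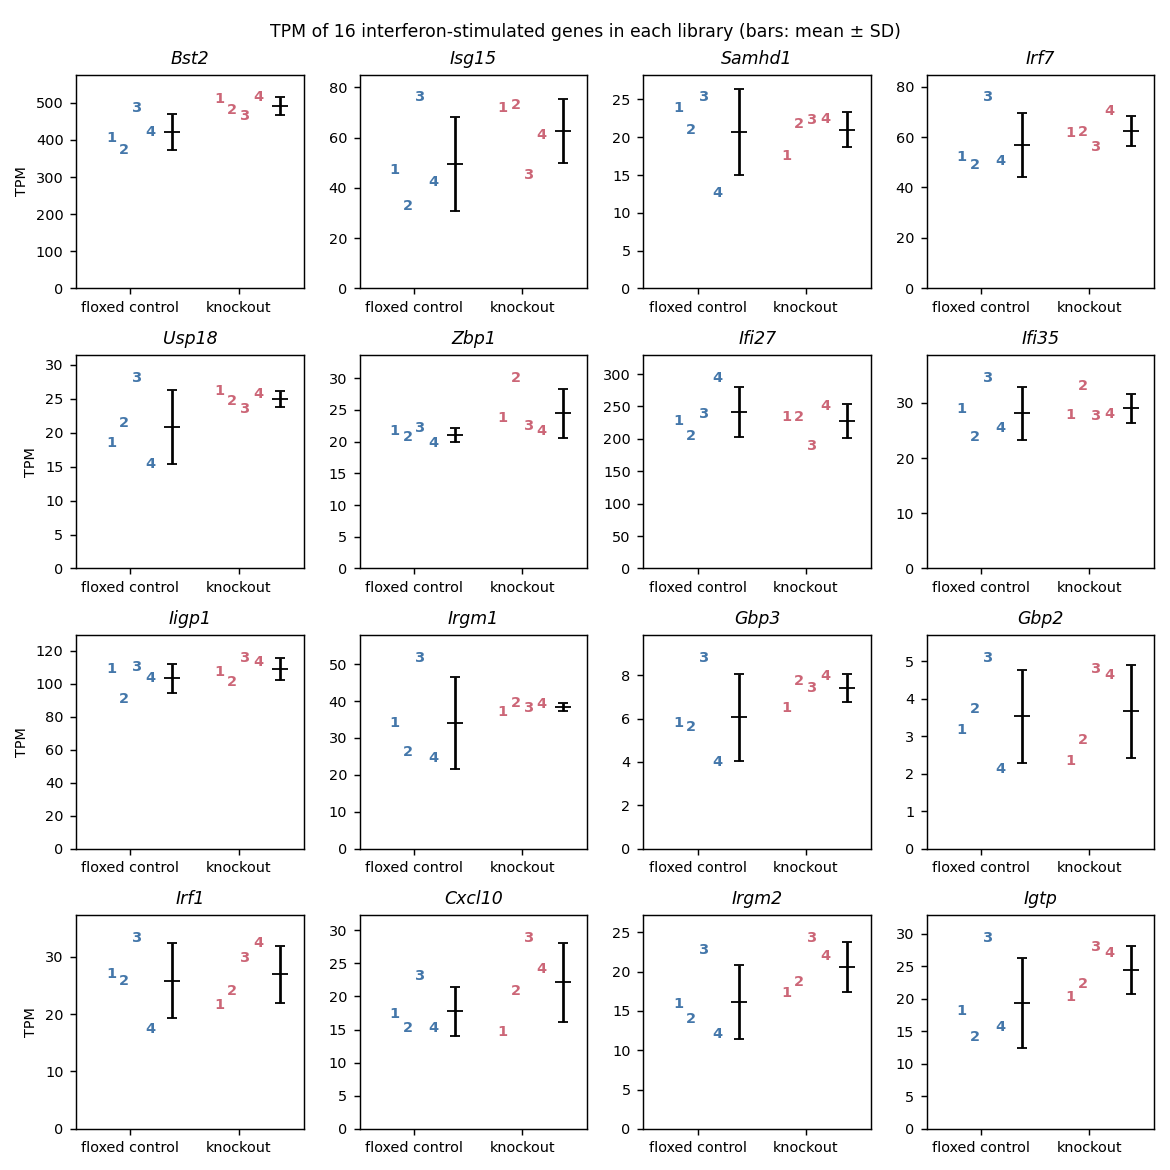
Level of each of the 16 interferon-stimulated genes named by the rule in each of the 8 libraries (TPM, axes from 0), each digit being the number of a floxed control or knockout library, with bars for mean ± SD. Control 3 is the highest control in each of these 16 panels but that of Ifi27.

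The gamma genes had the larger median of both classes, 0.24 against 0.14 for type I, with 10 of 10 and 27 of 28 higher in mean log2 level. Under median-of-ratios scaling the medians were 0.18 and 0.08, and under quantile normalization 0.17 and 0.08. With knockout 3 left out, the gamma and type I medians were nearly equal, at 0.19 and 0.17. The difference between classes was not tested, and 0 of the 10 passed. The immunity-related GTPases, which coat and disrupt the vacuoles of intracellular pathogens, were 5 of 5 higher with a median of 0.25. Igtp (ENSMUSG00000078853) measured 18.2, 14.1, 29.4 and 15.7 TPM across the controls against 20.3, 22.3, 28.0 and 27.0 TPM across the knockouts. All 4 knockouts lay above controls 1, 2 and 4 and below control 3. The means were 19.3 ± 6.89 and 24.4 ± 3.68 TPM (SD, n = 4 each), with a log2 difference of 0.36 (95% interval -0.09 to 0.82; limma adjusted p 0.733).

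Irgm2 (ENSMUSG00000069874), the neighbour of Igtp on chromosome 11, had nearly the same layout. It measured 15.9, 14.0, 22.8 and 12.1 TPM across the controls against 17.3, 18.7, 24.3 and 22.0 TPM across the knockouts, with knockout 3 above control 3 as the one departure. The log2 difference was 0.35 (95% interval -0.05 to 0.76; limma p 0.0829, adjusted 0.695). Transcripts of Igtp share 11.8% of their 50-base words with other genes, chiefly Irgm2, so their levels are not fully independent. Irgm1 (ENSMUSG00000046879), a regulator of the other GTPases and of autophagy, measured 34.0, 26.2, 51.8 and 24.6 TPM across the controls against 37.0, 39.6, 38.2 and 39.1 TPM across the knockouts. The knockouts lay within a few TPM of each other inside a wide range of controls (log2 difference 0.23 ± 0.20, SE; limma adjusted p 0.871). Iigp1 (ENSMUSG00000054072), the most abundant gamma gene, measured 109, 90.7, 110 and 104 TPM across the controls against 107, 101, 116 and 113 TPM across the knockouts (log2 difference 0.08 ± 0.09, SE; limma adjusted p 0.903). Control 2 was the lowest and knockout 3 the highest, and the groups overlapped. Ifi47, the remaining one, ran from 22.1 to 34.9 TPM across the controls and from 33.0 to 37.8 TPM across the knockouts, a log2 difference of 0.25.

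Guanylate-binding proteins assemble on pathogen membranes and promote inflammasome activation. The 3 among the 38 were all higher in mean log2 level, with a median of 0.11. Gbp3 (ENSMUSG00000028268) measured 5.80, 5.61, 8.81 and 4.0 TPM across the controls against 6.50, 7.72, 7.43 and 7.95 TPM across the knockouts, again with control 3 above and the other controls below every knockout (log2 difference 0.29 ± 0.19, SE; limma adjusted p 0.793). Gbp2 (ENSMUSG00000028270) measured 3.17, 3.72, 5.10 and 2.14 TPM across the controls against 2.34, 2.90, 4.81 and 4.63 TPM across the knockouts. Its groups covered nearly the same range, and its means of 3.53 ± 1.23 and 3.67 ± 1.24 TPM (SD, n = 4 each) gave a log2 difference of 0.04. Gbp7 ran from 2.26 to 3.42 TPM across the controls and from 2.41 to 3.99 TPM across the knockouts, a log2 difference of 0.11, with 12.7% of its 50-base words found in another gene.

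Irf1 (ENSMUSG00000018899), a transcription factor that drives many later genes, measured 27.0, 25.7, 33.3 and 17.3 TPM across the controls against 21.6, 24.0, 29.7 and 32.3 TPM across the knockouts. The knockouts lay inside the range of the controls (log2 difference 0.07 ± 0.19, SE; limma adjusted p 0.976). Cxcl10 (ENSMUSG00000034855), a chemokine that draws T and NK cells through CXCR3, measured 17.4, 15.3, 23.1 and 15.2 TPM across the controls against 14.7, 20.8, 28.9 and 24.1 TPM across the knockouts. Knockout 1 was the lowest of all 8 and knockout 3 the highest (log2 difference 0.28 ± 0.20, SE; limma adjusted p 0.821).

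The spread of the 38 genes lay in the controls more than in the knockouts. The SD of the log2 level was larger in the controls in 31 of 38 genes (81.6%), against 56.5% of all genes tested. This was not particular to the 38. The share was 90.9% in the 11 tested markers of Kupffer cells and macrophages and 100% in the 8 endothelial and 6 stellate ones. It was 55.6% in 9 hepatocyte markers and 0% in 4 cholangiocyte markers. For T and NK cells it was 66.7% of 6 markers, and for B and plasma cells 33.3% of 3. Conventional dendritic and neutrophil markers, 3 each, were both at 66.7%, and 2 plasmacytoid ones at 100%. Among the further response genes described below, it was 80.5% of 41 for type I and 52.2% of 23 for gamma. The median SD over the 38 was 0.37 in the controls and 0.21 in the knockouts, while over all genes tested it was 0.21 and 0.19. For the immunity-related GTPases the medians were 0.37 and 0.09. Single control libraries stood at the ends of these ranges. Control 3 was the highest of the 8 in 23 of the 38 (60.5%), against 8.21% of all genes tested, and control 2 the lowest of the 8 in 13 (34.2%), against 7.50%. Control 4 was the lowest in 20 (52.6%), near its share of 44.8% over all genes. It also held the lowest summed markers of Kupffer cells and macrophages, 1000 TPM against 1373 to 1882 TPM in the other libraries, and the lowest of endothelial, stellate, lymphoid, dendritic and neutrophil markers, and the highest of hepatocyte markers. Their part in the low values of control 4 was not tested. The mean log2 deviation of the type I genes from their mean over the 8 libraries was 0.36 in control 3, -0.24 in control 2 and -0.35 in control 4, and that of the gamma genes 0.30, -0.25 and -0.41. Over all genes tested these deviations were -0.01, 0.05 and -0.22.

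**Figure D3:**
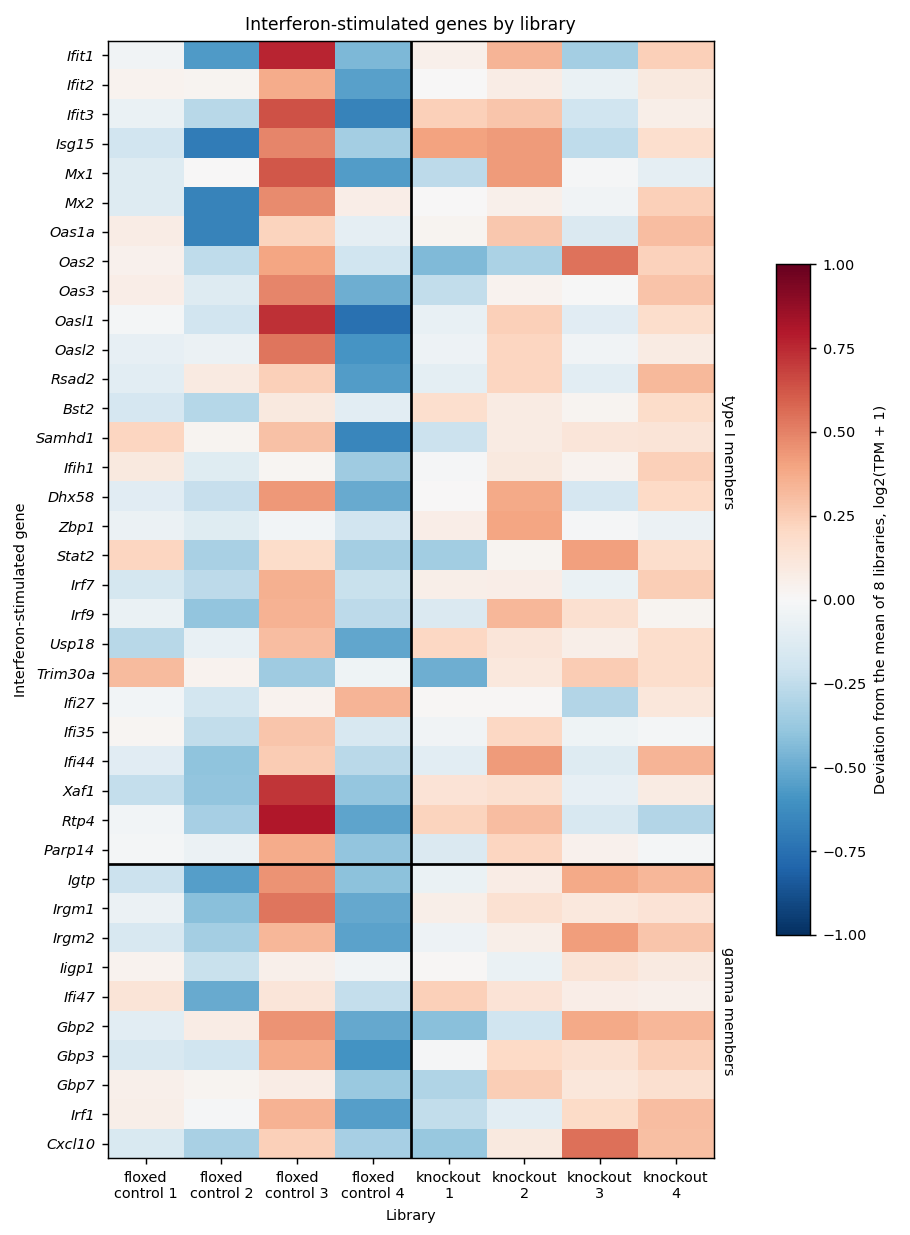
Log2 level of each of the 38 genes (rows, by role) in each library (columns) as a deviation from the mean of the gene over the 8 libraries, on a colour scale in log2 units. The column of control 3 is high in most rows, and the columns of controls 2 and 4 are low in most rows.

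The size of the differences depended on single control libraries. Without control 3, 11 of the 38 had an unadjusted limma p under 0.05, all higher in the knockouts, against 5.02% of all genes tested that were called higher in that fit. They were Ifit3, Isg15, Bst2, Irf7, Irf9, Usp18, Xaf1, Igtp, Irgm1, Irgm2 and Gbp3, and 0 of the 38 passed the adjusted threshold there either, with a smallest adjusted p of 0.311. The medians in that fit were 0.30 for type I and 0.37 for gamma genes. Control 3 was the highest control in 33 of the 38, so leaving it out lowers their control means. With any other single library left out, 0 or 1 of the 38 had an unadjusted limma p under 0.05 in the higher direction. Without control 4, the medians were 0.02 and 0.12, and 26 of the 38 were higher, against 48.7% of all genes. Without control 2, the medians were 0.07 and 0.13, beside a median of 0.08 over all genes tested, so the type I median lay just below that of all genes, and 31 of the 38 were higher, against 69.3%. With controls 3 and 4 both left out, a setting chosen after seeing the data, the medians were 0.17 and 0.32, 9 of the 38 had an unadjusted p under 0.05 in the higher direction (3.19% of all genes) and 0 passed, with a smallest adjusted p of 0.383.

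The classes differed in the place of knockout 3 among the knockouts. Among the 4 knockouts, knockout 3 was the highest for 5 of 10 gamma genes and the lowest for none of them, and it was the highest for 3 and the lowest for 16 of 28 type I genes. Over all genes tested it was the highest in 22.5% and the lowest in 18.3%. Knockout 2 was the highest of the knockouts for 14 of 28 type I genes, against 33.4% of all genes. The mean deviation in knockout 3 was 0.25 for gamma and -0.02 for type I genes. At the low end the classes were alike, since knockout 1 had the lowest mean deviation of the knockouts in both. It stood at -0.12 for gamma and -0.04 for type I genes. Knockout 1 was the lowest knockout for 8 of 10 gamma and 10 of 28 type I genes, against 56.6% of all genes. The further gamma response genes, taken up after the 38, had knockout 3 highest of the knockouts in 13 of 23 and lowest in none. The further type I genes had knockout 3 highest in 4 and lowest in 10 of 41. In both of these lists knockout 1 was the most frequent lowest knockout, in 17 of 23 and 27 of 41. The 12 T and NK cell markers together were at 15.9, 14.3, 27.2 and 10.6 TPM across the controls and 14.6, 20.8, 38.5 and 26.7 TPM across the knockouts, highest in knockout 3 and, among the controls, in control 3. None of these marker genes was at 0 in all 8 libraries, but 3 of the 12 stayed below 1 TPM in all 8. The 6 that reached the level needed for testing were all higher in the knockouts, against 64.6% of all genes, with a median log2 difference of 0.34, and 0 passed. The median of the mean levels of the 12 was 1.19 TPM, close to the 1 TPM of the filter. A marker near that level can enter the test through the 4 knockouts alone, so the 6 of 6 may come in part from the filter. The part of T and NK cells in the gamma levels was not tested.

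**Figure D4:**
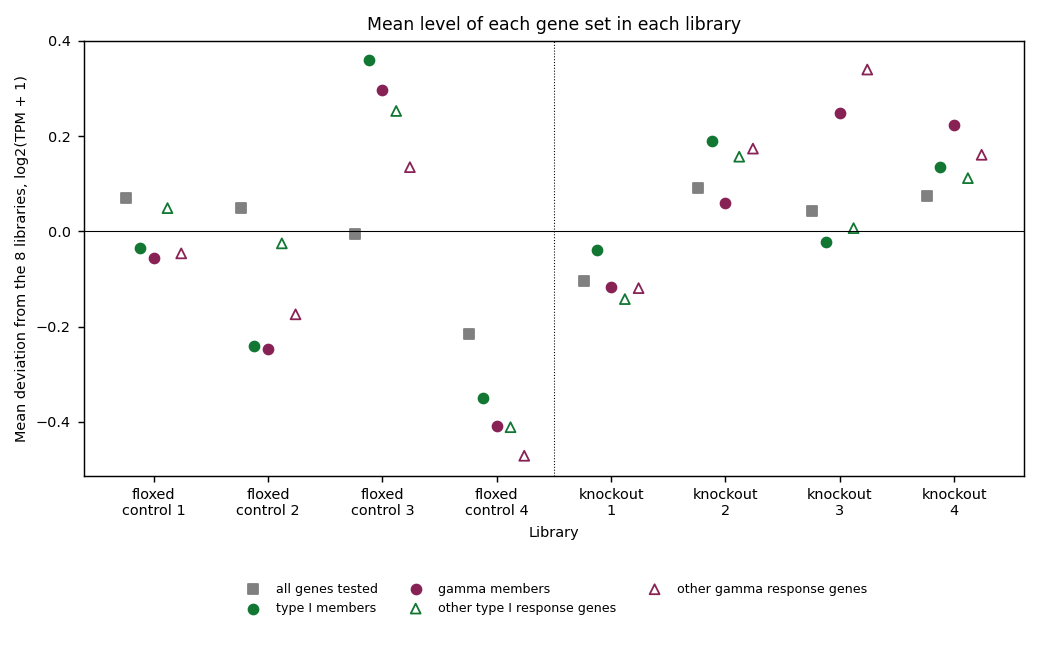
Mean log2 deviation per library of the type I and gamma members (filled circles), the further genes of each response (open triangles) and all genes tested (squares) from the mean of each gene over the 8 libraries (vertical axis, log2 units). Among the 8 libraries, both member classes are highest in control 3, and in knockout 3 the gamma genes stand at 0.25 and the type I genes at -0.02.

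Upstream of these genes, the interferons themselves were almost silent in the libraries. Of 20 ligand genes, 0 reached the level needed for testing and 19 are listed at 0 TPM in all 8 libraries. The exception was Ifng, at 0, 0.18, 0.15 and 0 TPM across the controls and 0.05, 0, 0.29 and 1.02 TPM across the knockouts, too low to compare. Of 12 genes of receptors, JAK kinases, STAT factors and their SOCS inhibitors, 10 were tested, 8 were higher and 2 lower with a median of 0.08, and 0 passed. Ifngr1, the ligand-binding chain of the gamma receptor, differed by 0.21 (adjusted p 0.769 in limma). Of 24 nucleic acid sensing genes, 19 were tested, with 12 higher, 7 lower, a median of 0.05 and 0 passing. Ddx41, a DNA sensor gene, and Ikbke, a kinase gene upstream of IRF3, had the smallest p among them, with differences of 0.18 and 0.22.

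Other genes of the response that are not among the 38 were taken from lists of the same kind. Of 47 further type I response genes, 41 were tested, with 30 higher, 11 lower, a median of 0.06 and 0 passing. The smallest p were those of Lgals9, a galectin gene, at 401 ± 26.8 and 445 ± 25.1 TPM (SD, n = 4 each), and of Cmpk2, a mitochondrial nucleotide kinase gene, at 3.90 ± 1.3 and 5.37 ± 1.03 TPM. Of 29 further gamma response genes, 23 were tested, with 22 higher, 1 lower, a median of 0.25 and 0 passing. At an unadjusted p under 0.05 there were 5 of these 23, all higher, against 5.57% of all genes tested, and in 2 of them the groups did not overlap, against 3.29%.

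Those 5 included 4 guanylate-binding protein genes, of which Gbp11 and Gbp6 are named by the rule and Gbp10 and Gbp8 after their values were seen. Gbp11 (ENSMUSG00000092021) measured 1.56, 1.97, 1.99 and 2.51 TPM across the controls against 4.54, 4.98, 6.51 and 3.33 TPM across the knockouts. Every knockout lay above every control, with means of 2.01 ± 0.39 and 4.84 ± 1.31 TPM (SD, n = 4 each) and a log2 difference of 0.94 (95% interval 0.53 to 1.35; limma p 0.00043, adjusted 0.130). Gbp6 (ENSMUSG00000104713) measured 7.91, 5.86, 8.24 and 5.91 TPM across the controls against 13.1, 14.3, 11.1 and 7.91 TPM across the knockouts. Knockout 4 lay among the controls, and the log2 difference was 0.64 ± 0.19 (SE; limma adjusted p 0.298). Gbp10 and Gbp8 differed by 0.60 and 0.46 (limma adjusted p 0.332 and 0.552).

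These 4 genes lie in an array of 6 tested genes, Gbp4, Gbp6, Gbp8, Gbp9, Gbp10 and Gbp11, on another chromosome than Gbp2, Gbp3 and Gbp7. The array was 6 of 6 higher with a median of 0.53, from 0.04 to 0.94. The array of Gbp2, with Gbp5 and Gbp2b, was 5 of 5 higher with a median of 0.25, from 0.04 to 0.36. Over all genes tested, 64.6% were higher. The array of Gbp6 was described because these 4 genes lie in it. Its count and median therefore follow in part from that choice, and so does its lead over the array of Gbp2. The difference between the arrays was not tested. Within the Gbp6 array, 84.1% of the 50-base words of Gbp10 and 70.7% of those of Gbp6 occur in another gene, against 19.2% for Gbp11, 18.1% for Gbp8, 8.05% for Gbp9 and 7.70% for Gbp4. How reads were split is therefore uncertain for Gbp10 and Gbp6 above all. The remaining gene of the 5 was Cxcl9, a chemokine gene induced chiefly by interferon gamma and named after its values were seen. It measured 7.15, 6.75, 10.7 and 8.19 TPM across the controls against 9.13, 10.6, 14.2 and 13.1 TPM across the knockouts, with knockouts 1 and 2 below control 3 (log2 difference 0.47; limma p 0.0216, adjusted 0.494).

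**Figure D5:**
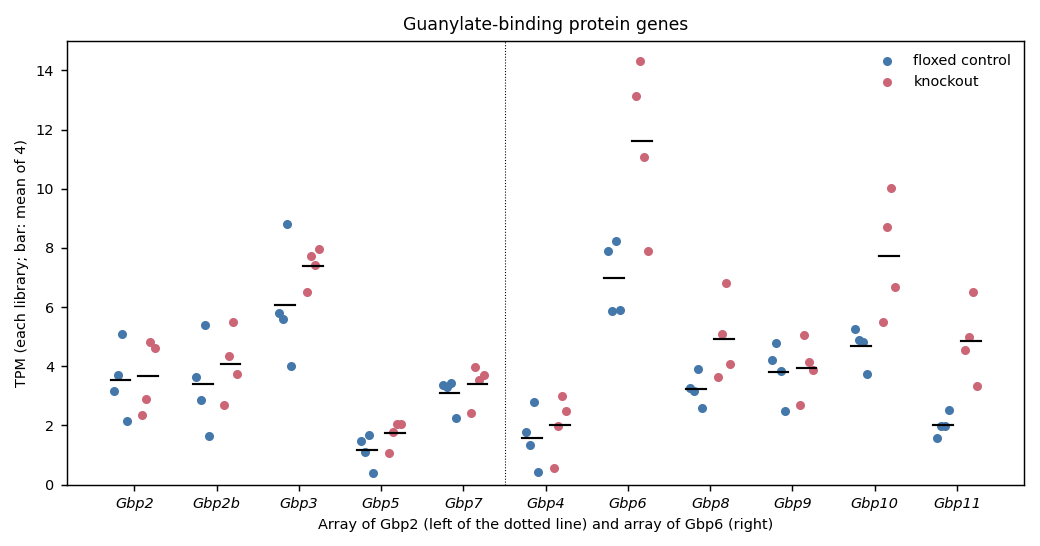
Level of the guanylate-binding protein genes tested in each library (TPM), for the array of Gbp2 and the array of Gbp6, floxed controls and knockouts apart, with the mean of each 4 as a bar. Gbp11 and Gbp10 are the genes whose knockout values all lie above their control values.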

How the data were processed

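Liver RNA of 4 floxed control and 4 knockout samples went into stranded total RNA libraries, per the labels' protocols. The authors deposited TPM values for 55416 mouse gene identifiers. RSEM 1.3.3 made the estimates, per the submitters' processing notes, which list GRCh38.p13 as build, although that is human and the table's identifiers are murine. The aligner and strand setting were not given in the sources used here. TPM is a share of each library, so a move in abundant transcripts shifts all other values.

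Symbols matched for 52083 identifiers. Testing took in the 12710 genes with 1 TPM or more in 4 or more of the 8 libraries, on log2(TPM + 1), a scale that understates changes of low genes, in limma 3.58.1 under R 4.3.3 (eBayes with trend, no covariates), with Benjamini-Hochberg adjustment over all genes tested and a threshold of 0.05. The script was checked on simulated data. No 2 libraries held identical values, with at most 0.448% of values equal. Same-numbered samples were not paired by the labels.

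The members and lists were chosen with earlier results of these data known. Named genes were the 2 most abundant of each role (3 in roles of over 6 members), the 3 of smallest p and the 3 of largest difference, and the 2 of smallest p from each further list. A gene among these is not reported here. Other genes printed with values, among them Ifit1, Mx1, Oasl1 and Oasl2, fall outside the naming rule. Motifs were searched in RefSeq promoter windows, and 50-base words shared between genes were counted in GENCODE M21 transcripts, whose coordinates were not used for the TPM values. As alternatives, the fit was rerun with a pseudocount of 0.1 or 5, unfiltered, filtered at a mean of 5 TPM, scaled by median of ratios or by quantiles, rescaled after dropping mitochondrial and the 20 most abundant genes, with robust eBayes, with weights per library, with a replicate block, and leaving out libraries.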

Additional observations from a re-analysis of the deposited data

Results flagged for a closer look

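In 5 of 80 groups of 4 samples looked at, 1 sample stood apart from the other 3 by more than Dixon's 95% critical value for the gap over the range. Chance flags about 1 in 20 such groups. Irf7 and Xaf1 had their apart value in floxed control 3, at 75.7 and 40.3 TPM (gap over range 0.885 and 0.902). Samhd1 had it in knockout 1 at 17.5 TPM (0.856), Ifi35 in knockout 2 at 33.0 TPM (0.923) and Gbp7 in control 4 at 2.26 TPM (0.897).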

How the results depend on the processing

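None of the 38 genes passed the adjusted threshold under any of the settings run. The number higher in the knockouts was 29 under median-of-ratios scaling and 28 under quantile normalization, where 50.8% and 50.5% of all genes were higher, and 25 with library weights, where the type I and gamma medians were 0.05 and 0.13. With a pseudocount of 5 they were 0.08 and 0.19. Over all genes, 13 passed in the fit described, 8 with a pseudocount of 0.1, 6 with 5, 0 without a filter, 20 after rescaling, 20 with library weights, 0 with the replicate block, 3 without controls 3 and 4 together, and 0 to 16 when 1 library was left out (0 without control 1 or knockout 3). Correlations of same-numbered samples lay between -0.195 and 0.031, and those of differently numbered samples between -0.101 and 0.188. These values cannot decide whether the numbers mark a shared litter or day, which the labels do not give. For Smpd3 the log2 difference was -1.89 without a filter (adjusted p 0.167), -1.89 with the replicate block (0.0818), -1.93 without controls 3 and 4 (0.0908) and -2.06 to -1.76 when 1 library was left out (0.0358 to 0.0874). Differences near 0 turned sign: under median-of-ratios scaling Ifi35 was at -0.0023 and Gbp2 at -0.00025, and under quantile normalization Ifi35 was at -0.015, Gbp2 at -0.0052 and Samhd1 at -0.0066. With library weights Gbp2 was at -0.0025, Samhd1 at -0.049 and Irf1 at -0.0074, and without controls 3 and 4 Samhd1 was at -0.093 and Ifi27 at 0.065. With 1 library left out, Samhd1 ran from -0.15 to 0.17, Ifi27 from -0.16 to 0.017, Ifi35 from -0.018 to 0.16, Gbp2 from -0.12 to 0.20 and Irf1 from -0.10 to 0.20. The cause was not tested. Depth is unknown, and 4 libraries a group limit the precision.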

Other observations

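Several of the genes have neighbours in the genome that belong to the same response. The few described here were picked without a rule, and differences between neighbours were not tested. Cmpk2, next to Rsad2, had the larger difference of that pair, 0.40 on the log2 scale against 0.17 ± 0.19 (SE) in Rsad2. Beside Parp14, the gene of an ADP-ribosyltransferase, stand Dtx3l, a ubiquitin ligase gene, and its partner gene Parp9. Parp9 measured 19.1, 15.4, 21.1 and 11.9 TPM across the controls against 17.5, 20.6, 17.8 and 20.4 TPM across the knockouts. Dtx3l measured 13.7, 12.0, 13.2 and 9.33 TPM across the controls against 6.65, 12.8, 12.2 and 10.4 TPM across the knockouts, with knockout 1 the lowest of the 8. None of these genes passed the test in limma.

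Ifi27l2a, a relative of Ifi27, measured 146, 122, 208 and 117 TPM across the controls against 211, 211, 132 and 174 TPM across the knockouts. Knockout 3 lay below controls 1 and 3, and the adjusted p in limma was 0.785. Ifi27, by its side, had its highest value in control 4, the library in which Ifi27l2a was lowest.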
